A study of Homo sapiens with 18 samples.

Results

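The genes described here are 10 integrin subunits, 6 alpha (ITGA2, ITGA3, ITGA5, ITGA6, ITGA10 and ITGAV) and 4 beta (ITGB1, ITGB3, ITGB4 and ITGB5), of 17017 genes in the deposited table. They were taken by symbol from that table. These members and the gene lists below were chosen with earlier results of these data known. Their counts beside the shares over all genes are therefore a description. ITGA10 was selected on its footprint change, which was among the highest of the rises that both hairpins share, so its differences from the control are given as a description, with no test. The cells were MDA-MB-231, an established human line of triple-negative breast carcinoma. All of them were transduced with pLKO.1 lentivirus and selected with 1 µg/ml puromycin for 96 h. The control group, labelled SC and read here as the scramble hairpin, was compared with 2 groups carrying hairpins against fibrillarin (FBL), the nucleolar methyltransferase that marks ribosomal RNA, labelled SH2 and SH3. In every group the cells received 100 µg/ml cycloheximide for 5 min before lysis. Cytoplasmic RNA and RNase I footprints of ribosomes were sequenced from 3 replicates each, 18 libraries in all. The labels do not say that replicates were separate cultures, so p-values measure only the spread between these samples, which may be technical.

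Integrins are cell surface receptors made of 1 alpha and 1 beta chain, which join the extracellular matrix outside to the actin or keratin cytoskeleton inside. The alpha chain largely sets the ligand. The chains ITGA2 and ITGA10 bind collagens, ITGA3 and ITGA6 bind laminins, and ITGA5 and ITGAV bind fibronectin, vitronectin and other proteins with an arginine-glycine-aspartate motif. ITGB1 pairs with each of these 6 alpha chains, ITGB4 with ITGA6 only, and ITGB3 and ITGB5 with ITGAV. An alpha chain leaves the endoplasmic reticulum only with a beta partner, so messenger RNA and footprints do not give the number of receptors at the surface, which was not measured.

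Mean FBL RNA was 388 CPM in SC (SD 36.4), whereas SH2 had 5.67 (SD 5.09) and SH3 had 3.49 (SD 0.612), each over 3 libraries. CPM are counts scaled to library size after scaling by edgeR's TMM factors. The RNA libraries held 23469830 to 27629488 counts and the footprint libraries 1662705 to 6098648, with SH3 replicate 1 the shallowest. Spread between replicates was 11.6% in RNA and 15.1% in footprints, as edgeR's biological coefficient of variation. Within SC, ITGA2, ITGA5, ITGAV and ITGB1 were highest in replicate 1 of the RNA and in replicate 2 of the footprints. Of the genes that define the line, vimentin (VIM) stood at 5579 CPM in SC RNA and EGFR at 197 CPM. Of the luminal genes, ESR1, PGR and CDH1 had 0 to 11 counts in every RNA library, while ERBB2 stood at 95.3, GATA3 at 8.03, EPCAM at 5.66 and FOXA1 at 1.09 CPM in SC RNA. The summed level of 6 blood cell markers was 7.91 to 11.0 CPM in SC RNA, 7.49 to 12.3 in SH2 and 7.93 to 12.6 in SH3. In lysates of whole cultures, fewer cells that express a gene and less RNA per cell cannot be told apart.

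Promoter windows, from 250 bases before to 50 bases after a start of transcription, were read from a set of RefSeq windows (GRCh38.p14). That set held windows for 7 of the 10 subunits, with none for ITGA3, ITGB3 and ITGB4. The windows at the outermost start are shown for ITGA10, for ITGA5 and ITGAV, which rose with both hairpins, and for ITGB1, the partner they share. Capitals mark matches to the GC box GGGCGG, the CCAAT box CCAAT, the AP-1 site TGANTCA or the TATA box TATAAA, each searched on both strands, with overlapping matches counted separately.
ITGA10 promoter, chr1:145910001-145910300, - strand: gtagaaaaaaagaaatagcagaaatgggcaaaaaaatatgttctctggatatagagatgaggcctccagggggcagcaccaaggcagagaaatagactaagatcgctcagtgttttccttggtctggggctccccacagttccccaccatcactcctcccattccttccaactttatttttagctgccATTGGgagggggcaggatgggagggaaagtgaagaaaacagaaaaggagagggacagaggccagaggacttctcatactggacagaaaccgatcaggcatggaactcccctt
ITGA5 promoter, chr12:54419217-54419516, - strand: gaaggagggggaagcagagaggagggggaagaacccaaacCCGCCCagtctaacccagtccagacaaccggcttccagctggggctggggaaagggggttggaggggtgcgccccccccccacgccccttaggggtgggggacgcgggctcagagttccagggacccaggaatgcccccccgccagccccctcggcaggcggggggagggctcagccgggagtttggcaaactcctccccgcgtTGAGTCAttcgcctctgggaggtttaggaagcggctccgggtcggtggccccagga
ITGAV promoter, chr2:186589806-186590105, + strand: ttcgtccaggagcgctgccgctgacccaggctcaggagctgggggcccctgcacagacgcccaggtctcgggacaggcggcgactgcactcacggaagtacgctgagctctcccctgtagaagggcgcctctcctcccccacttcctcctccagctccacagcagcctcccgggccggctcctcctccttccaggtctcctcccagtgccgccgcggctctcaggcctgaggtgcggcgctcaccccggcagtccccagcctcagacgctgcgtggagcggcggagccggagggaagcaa
ITGB1 promoter, chr10:32958181-32958480, - strand: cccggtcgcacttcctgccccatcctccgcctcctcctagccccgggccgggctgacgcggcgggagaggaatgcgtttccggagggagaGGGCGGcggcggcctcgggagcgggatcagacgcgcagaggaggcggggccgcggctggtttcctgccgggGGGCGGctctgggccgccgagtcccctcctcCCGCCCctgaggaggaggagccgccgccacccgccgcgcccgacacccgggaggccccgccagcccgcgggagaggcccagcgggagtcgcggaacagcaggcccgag
The ITGA10 window holds 1 CCAAT box, read on the opposite strand, and 0 GC boxes, with 48.7% G and C. The other 3 windows have 69.3% to 78.3% G and C, with 1 GC box and 1 AP-1 site in ITGA5, 0 matches in ITGAV and 3 GC boxes in ITGB1. Of 35116 human promoter windows of the same length, 45% hold a GC box, 34.6% a CCAAT box, 7.71% an AP-1 site and 11.5% a TATA box. These matches are a description of the letters, and no binding was measured.

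Most of the subunits were called higher in SH2, in RNA and in footprints, and fewer were called higher in SH3. ITGA3, ITGA5, ITGAV and ITGB4 rose with both hairpins in both measures. ITGA2 and ITGA6 were called higher against SC in SH2 and not in SH3. In SH3 and not in SH2, ITGB5 was called lower in both measures and ITGB1 higher in RNA. In RNA, 6 of the 8 tested subunits other than ITGA10 were called higher in SH2, where 31.1% of 12710 genes were called higher. Called means a Benjamini-Hochberg (BH) adjusted p under 0.05 in edgeR's quasi-likelihood test over the whole table. For SH3 the RNA call was made for 6 of the 8, namely 5 higher and 1 lower, against 27.8% of genes called higher and 25.2% called lower.

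In footprints, 6 of the 8 were called higher in SH2, where 21.0% of 10345 genes were called higher. With SH3, 4 of the 8 were called higher and 1 lower, against 16.9% of genes higher and 19.0% lower. The median log2 change over the 9 tested subunits, ITGA10 included, was 1.15 in SH2 RNA and 0.95 in SH3 RNA, where the medians of all genes were 0.012 and 0.034. For footprints it was 1.41 in SH2 and 0.99 in SH3, with all-gene medians of -0.0042 and -0.014. ITGA10, selected on its rise, was the highest of the 9 each time and lifts these medians. Without ITGA10 the RNA median lies between 1.02 (ITGAV) and 1.15 (ITGB4) in SH2. In SH3 RNA it lies between 0.50 (ITGB1) and 0.95 (ITGB4). The footprint median without ITGA10 lies between 1.13 (ITGAV) and 1.41 (ITGB4) in SH2. In SH3 footprints it lies between 0.21 (ITGB1) and 0.99 (ITGAV). The tested subunits other than ITGA10 had 73 or more counts in every library. Both hairpins were set against the same SC libraries, so the 2 sets of changes share their control values.

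**Figure D1:**
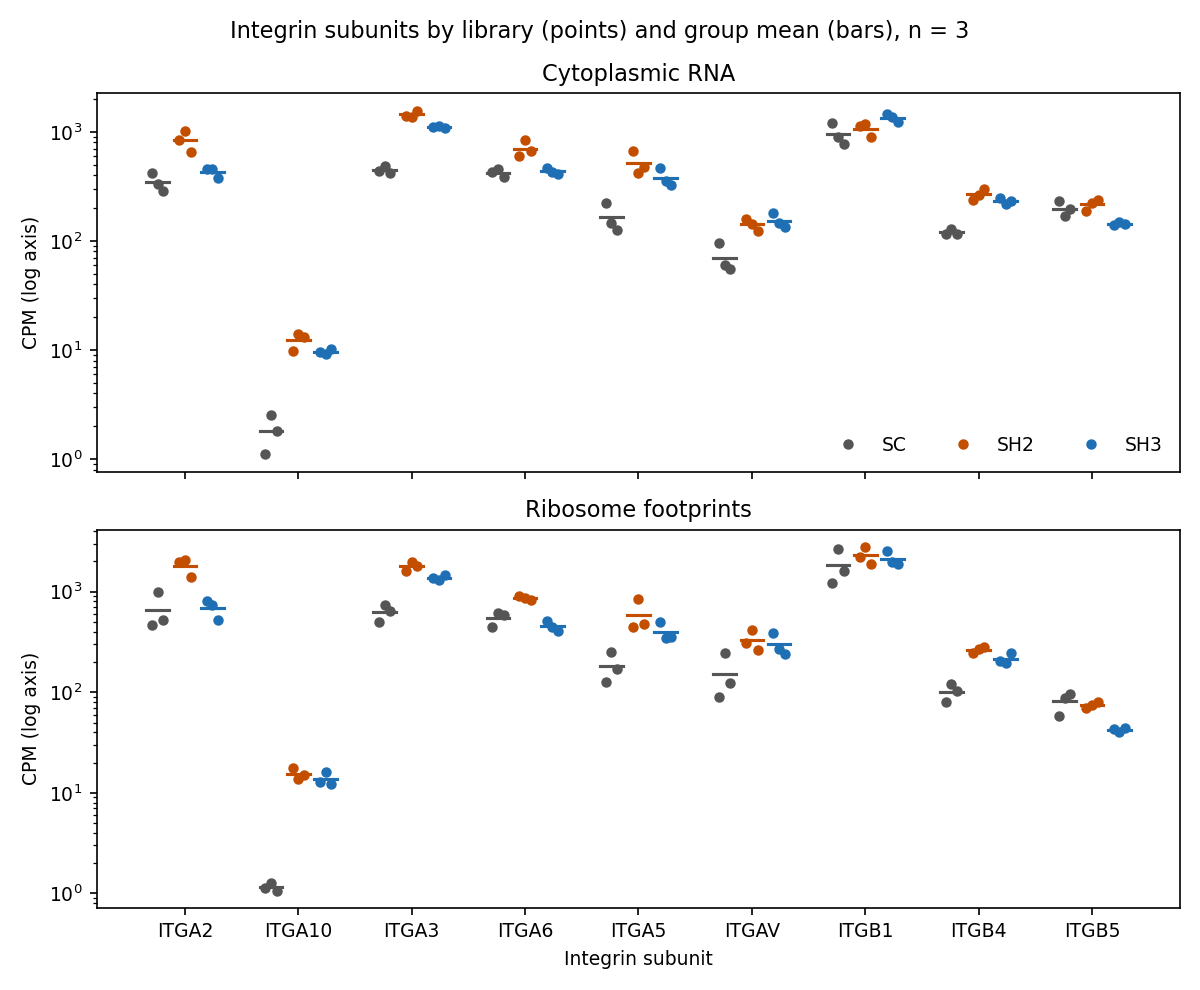
Level of 9 subunits in each library (points; bars are group means, n = 3), in CPM on a log axis, for cytoplasmic RNA above and ribosome footprints below. ITGB3, with 0 or 1 footprint counts per library, is left out. Heights may be compared between groups of 1 gene only, since CPM do not account for gene length. ITGA3 and ITGB4 show SC points below all hairpin points in both panels, while the ITGB1 footprint points of the 3 groups overlap.

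ITGA10, a collagen receptor chain known from cartilage, where it binds type II collagen, had few reads in SC. Its RNA was 1.10, 2.51 and 1.81 CPM in SC replicates 1 to 3, then 9.73, 14.0 and 13.1 in SH2, and 9.60, 9.10 and 10.3 in SH3. Every hairpin library lay above every SC library, and the 2 hairpin groups overlapped. Its footprints numbered 7, 3 and 6 in the SC libraries, against 48, 59 and 46 in SH2 and 22, 47 and 35 in SH3. Scaled to depth, they were 1.14, 1.26 and 1.07 CPM in SC, 17.8, 13.8 and 14.9 in SH2, and 12.9, 16.1 and 12.3 in SH3. The SC footprint level therefore rests on a handful of reads per library, and even the highest group has fewer than 60 per library.

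The log2 change of ITGA10 against SC was 2.76 (SE 0.23) in SH2 RNA and 2.42 (SE 0.24) in SH3 RNA. In footprints it was 3.72 (SE 0.30) and 3.57 (SE 0.32), which is 13.2-fold and 11.9-fold. With single replicates left out, the SH2 footprint change stayed between 3.63 and 3.81 and the SH3 change between 3.44 and 3.67. Thinning all footprint libraries to the depth of the shallowest gave the lowest values, 3.15 for SH2 and 3.09 for SH3. A gene chosen for a rise with both hairpins is likely to differ little between them, and the difference between SH2 and SH3 was not called. It was 0.35 in RNA (95% interval -0.08 to 0.78, edgeR BH-adjusted p = 0.182) and 0.15 in footprints (-0.33 to 0.64, edgeR BH-adjusted p = 0.669).

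ITGA2, the collagen and laminin receptor chain of epithelial cells and platelets, separated the 2 hairpins. Its RNA was 420, 330 and 284 CPM in SC, 840, 1009 and 653 in SH2, and 460, 459 and 380 in SH3. Its footprints were 469, 996 and 522 CPM in SC, 1954, 2057 and 1392 in SH2, and 810, 738 and 526 in SH3. All SH2 libraries lay above all SC libraries, whereas the SH3 range crossed the SC range in both measures. ITGA2 rose in SH2 by 1.28 in RNA (SE 0.16, edgeR BH-adjusted p = 1.46e-05) and by 1.45 in footprints (SE 0.25, edgeR BH-adjusted p = 0.000235), on the log2 scale. In SH3 the changes were 0.33 (95% interval -0.02 to 0.67, edgeR BH-adjusted p = 0.100) and 0.064 (-0.45 to 0.58, edgeR BH-adjusted p = 0.860). The SH3 RNA change was called without SC replicate 1 (0.48, edgeR BH-adjusted p = 0.0175) and with a replicate block (0.34, edgeR BH-adjusted p = 0.0141).

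Of the laminin receptor chains, ITGA3 was higher in every hairpin library. ITGA3 pairs with ITGB1 as the main receptor for laminin-332 in epithelia. Its RNA was 442, 482 and 418 CPM in SC, 1407, 1371 and 1563 in SH2, and 1118, 1133 and 1088 in SH3. The footprints were 500, 732 and 641 CPM in SC, 1622, 1985 and 1778 in SH2, and 1359, 1318 and 1462 in SH3. No 2 of the 3 groups overlapped in either measure. ITGA3 rose by 1.69 in SH2 RNA (SE 0.095, edgeR BH-adjusted p = 1.91e-08) and by 1.32 in SH3 RNA (SE 0.094, edgeR BH-adjusted p = 2.65e-07). In footprints it rose by 1.53 (SE 0.15, edgeR BH-adjusted p = 1.58e-06) and 1.15 (SE 0.15, edgeR BH-adjusted p = 3.56e-05).

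ITGA6 pairs with ITGB1 or, in hemidesmosomes, with ITGB4. Its RNA was 430, 456 and 384 CPM in SC, 604, 836 and 666 in SH2, and 468, 424 and 414 in SH3. The footprints were 449, 610 and 583 CPM in SC, 909, 873 and 833 in SH2, and 513, 441 and 409 in SH3. The SH2 libraries were the highest in both measures, and SH3 overlapped SC. ITGA6 rose in SH2 by 0.73 in RNA (SE 0.12, edgeR BH-adjusted p = 0.000131) and by 0.67 in footprints (SE 0.14, edgeR BH-adjusted p = 0.00122). For SH3 the values were 0.041 in RNA (edgeR BH-adjusted p = 0.790) and -0.27 in footprints (95% interval -0.57 to 0.03, edgeR BH-adjusted p = 0.151). Without SC replicate 1 the SH3 footprint change was called as a fall (-0.38, edgeR BH-adjusted p = 0.0326).

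ITGB4, whose long cytoplasmic tail links laminin receptors to keratin filaments, had RNA of 116, 128 and 117 CPM in SC, 237, 265 and 299 in SH2, and 246, 217 and 232 in SH3. Its footprints were 79.6, 120 and 102 CPM in SC, 246, 272 and 280 in SH2, and 204, 195 and 245 in SH3. Both hairpin groups lay above SC throughout. ITGB4 rose in RNA by 1.15 in SH2 (SE 0.10, edgeR BH-adjusted p = 6.13e-07) and by 0.95 in SH3 (SE 0.10, edgeR BH-adjusted p = 6.12e-06). In footprints it rose by 1.41 (SE 0.16, edgeR BH-adjusted p = 6.25e-06) and 1.11 (SE 0.16, edgeR BH-adjusted p = 9.09e-05). ITGB4 thus rose in SH3, where its only alpha partner ITGA6 was not called. RefSeq (GRCh38.p14) places the gene GALK1 over part of ITGB4, and the strand setting of the authors' counting is not given in the sources used here, so a share of these reads could belong to that neighbour.

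Both chains that bind the arginine-glycine-aspartate motif rose with each hairpin. ITGA5 is the fibronectin receptor chain that pairs with ITGB1 alone. Its RNA was 223, 147 and 126 CPM in SC, 665, 424 and 479 in SH2, and 468, 352 and 323 in SH3. The footprints were 128, 253 and 169 CPM in SC, 446, 853 and 474 in SH2, and 502, 349 and 352 in SH3. Spread was wider than for ITGA3, yet no hairpin library fell into the SC range. ITGA5 rose in RNA by 1.66 in SH2 (SE 0.21, edgeR BH-adjusted p = 1.50e-05) and 1.20 in SH3 (SE 0.21, edgeR BH-adjusted p = 0.000311). In footprints it rose by 1.70 (SE 0.26, edgeR BH-adjusted p = 9.51e-05) and 1.14 (SE 0.26, edgeR BH-adjusted p = 0.00302).

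ITGAV, the vitronectin receptor chain, pairs with several beta chains and also activates latent TGF-beta. Its RNA was 94.8, 59.6 and 54.9 CPM in SC, 159, 143 and 123 in SH2, and 180, 145 and 135 in SH3. The footprints were 89.1, 244 and 125 CPM in SC, 311, 411 and 265 in SH2, and 386, 271 and 242 in SH3. In footprints the lowest SH3 library lay just under the highest SC library, replicate 2. ITGAV rose in RNA by 1.02 in SH2 (SE 0.18, edgeR BH-adjusted p = 0.000231) and 1.14 in SH3 (SE 0.18, edgeR BH-adjusted p = 0.000145). In footprints it rose by 1.13 in SH2 (SE 0.28, edgeR BH-adjusted p = 0.00436) and by 0.99 in SH3 (SE 0.29, edgeR BH-adjusted p = 0.0130). The SH3 footprint call was lost without SC replicate 3 (0.88, edgeR BH-adjusted p = 0.0560), without SH3 replicate 1 (0.78, edgeR BH-adjusted p = 0.0621) and with DESeq2 (0.98, DESeq2 BH-adjusted p = 0.0501), while without SC replicate 2 it was 1.49.

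ITGB1, the common partner, had RNA of 1194, 894 and 782 CPM in SC, 1121, 1187 and 895 in SH2, and 1465, 1358 and 1237 in SH3. Its footprints were 1231, 2672 and 1596 CPM in SC, 2228, 2786 and 1897 in SH2, and 2524, 1990 and 1864 in SH3. SC footprint replicates differed among themselves by more than the group means did. The change in SH2 was 0.16 in RNA (95% interval -0.16 to 0.47, edgeR BH-adjusted p = 0.366) and 0.33 in footprints (-0.14 to 0.81, edgeR BH-adjusted p = 0.245). In SH3 the RNA rose by 0.50 (SE 0.15, edgeR BH-adjusted p = 0.0111), and the footprint change was 0.21 (-0.26 to 0.69, edgeR BH-adjusted p = 0.484). These intervals leave room for a change of up to 1.75-fold in SH2 footprints and 1.61-fold in SH3 footprints.

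Single control libraries decided several ITGB1 calls. Without SC replicate 2, ITGB1 footprints were called higher in SH2 (0.71, edgeR BH-adjusted p = 0.00356) and in SH3 (0.59, edgeR BH-adjusted p = 0.0146). Without SC replicate 1, the SH2 RNA change was called (0.33, edgeR BH-adjusted p = 0.0374). The SH3 RNA call was lost without SC replicate 3 (0.37, edgeR BH-adjusted p = 0.0586) or SH3 replicate 1 (0.40, edgeR BH-adjusted p = 0.0600).

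ITGB5, a partner of ITGAV, went down with 1 hairpin. Its RNA was 230, 170 and 194 CPM in SC, 188, 224 and 236 in SH2, and 139, 148 and 143 in SH3. The footprints were 58.3, 88.5 and 96.8 CPM in SC, 69.2, 74.1 and 80.0 in SH2, and 42.7, 40.1 and 44.5 in SH3. All SH3 libraries lay below all SC and SH2 libraries. In SH3, ITGB5 fell by 0.47 in RNA (SE 0.12, edgeR BH-adjusted p = 0.00409) and by 0.93 in footprints (SE 0.18, edgeR BH-adjusted p = 0.00109). In SH2 the changes were 0.12 in RNA (edgeR BH-adjusted p = 0.372) and -0.12 in footprints (edgeR BH-adjusted p = 0.607). ITGB3, the other partner of ITGAV and a platelet integrin chain, was at the limit of detection. It had 7 to 11 RNA counts per library in SC, 4 to 9 in SH2 and 8 to 12 in SH3, with 1 footprint read over all 9 footprint libraries, so it failed the filter on low counts and no difference was detectable at this depth.

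**Figure D2:**
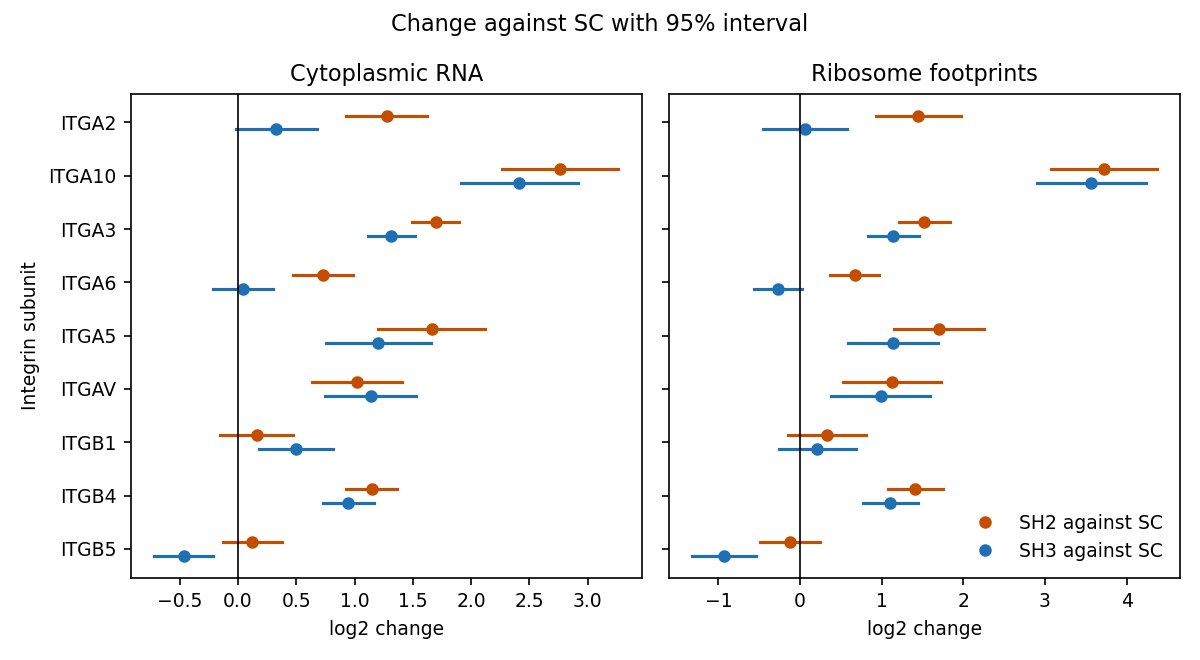
log2 change of each subunit against SC (points) with its 95% interval (bars, n = 3 libraries per group), for cytoplasmic RNA on the left and footprints on the right. ITGB3 is not shown. The intervals of ITGA3, ITGA5, ITGAV and ITGB4 lie above 0 for both hairpins in both panels, those of ITGA2 and ITGA6 do so for SH2 alone, and that of ITGB5 lies below 0 for SH3 alone.

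The hairpins were then compared directly, since a call with one and not with the other does not show a difference. In RNA, 4 of the 8 tested subunits other than ITGA10 were called higher in SH2 than in SH3, against 18.9% of genes called higher. In footprints it was 3 of the 8, against 12.1%. ITGA2 was 0.95 higher in SH2 in RNA (SE 0.16, edgeR BH-adjusted p = 0.000475) and 1.38 higher in footprints (SE 0.25, edgeR BH-adjusted p = 0.000875), on the log2 scale. ITGA6 differed by 0.69 (SE 0.12, edgeR BH-adjusted p = 0.000542) and 0.94 (SE 0.14, edgeR BH-adjusted p = 0.000246). ITGB5 differed by 0.59 (SE 0.12, edgeR BH-adjusted p = 0.00137) and 0.81 (SE 0.18, edgeR BH-adjusted p = 0.00493). Each of these 3 genes differed between the hairpins in both measures.

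ITGA3 was also higher in SH2 than in SH3 in RNA, by 0.38 (SE 0.093, edgeR BH-adjusted p = 0.00534). Its footprint difference had the same size, 0.38, and was not called (95% interval 0.08 to 0.69, edgeR BH-adjusted p = 0.0662). For ITGAV the difference was -0.11 in RNA (-0.49 to 0.27, edgeR BH-adjusted p = 0.638) and 0.14 in footprints (-0.45 to 0.73, edgeR BH-adjusted p = 0.749). ITGA5 differed by 0.46 in RNA (0.01 to 0.90, edgeR BH-adjusted p = 0.0965) and 0.57 in footprints (0.03 to 1.10, edgeR BH-adjusted p = 0.118). ITGB4 differed by 0.20 (-0.01 to 0.42, edgeR BH-adjusted p = 0.125) and 0.31 (-0.02 to 0.64, edgeR BH-adjusted p = 0.163). ITGB1 differed by -0.34 in RNA (-0.66 to -0.03, edgeR BH-adjusted p = 0.0805) and 0.12 in footprints (-0.36 to 0.59, edgeR BH-adjusted p = 0.744). The 95% intervals of ITGA3 footprints, both ITGA5 measures and ITGB1 RNA lie to 1 side of 0, so these differences missed the threshold only after adjustment over all genes. With a replicate block the RNA differences of ITGA5 (edgeR BH-adjusted p = 0.00151) and ITGB1 (edgeR BH-adjusted p = 0.0124) and the footprint difference of ITGA3 (edgeR BH-adjusted p = 0.0339) were called. With no filter on low counts or only the 2 hairpin groups in the fit, the same 3 were called, as were ITGA5 footprints (edgeR BH-adjusted p = 0.00467 and 0.0369).

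Set against ITGB1 in the same library, which needs no scaling between libraries, most alpha chains took a larger share in SH2. Counts of ITGA2 per 100 ITGB1 counts were 36.1 ± 0.882 in SC RNA, 77.6 ± 6.43 in SH2 RNA, and 32.0 ± 1.61 in SH3 RNA (mean ± SD, n = 3). In footprints the ITGA2 values were 36.0 ± 2.90, 78.3 ± 8.13 and 32.5 ± 4.42. Relative to its mean, the spread of ITGA2 over SC libraries was smaller on this scale than in CPM, and the SC libraries that were high for ITGA2 were also high for ITGB1. ITGA5 per 100 ITGB1 counts was 17.1 ± 1.43 in SC RNA, 49.5 ± 12.3 in SH2 and 28.0 ± 3.44 in SH3, and in footprints 10.1 ± 0.585, 25.2 ± 5.30 and 18.8 ± 1.18. ITGAV was 7.21 ± 0.656, 13.3 ± 1.12 and 11.3 ± 0.859 in RNA, and 8.06 ± 0.978, 14.2 ± 0.459 and 14.0 ± 1.18 in footprints. For ITGA5 and ITGAV each hairpin library lay above each SC library in both measures, which includes the ITGAV footprints that overlapped in CPM.

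ITGA3 per 100 ITGB1 counts was 48.1 ± 9.63 in SC RNA, 139 ± 31.7 in SH2 and 82.6 ± 5.89 in SH3, and in footprints 36.1 ± 7.50, 79.3 ± 12.6 and 66.2 ± 12.3. ITGA6 relative to ITGB1 was lower in SH3 than in SH2, with no overlap. It was 45.4 ± 8.14 in SC RNA, 66.2 ± 10.8 in SH2 and 32.2 ± 1.12 in SH3, and in footprints 31.9 ± 7.90, 38.7 ± 6.55 and 21.5 ± 0.987. ITGA10 went from 0.202 ± 0.0979 in SC RNA to 1.17 ± 0.299 in SH2 and 0.719 ± 0.0968 in SH3. In footprints it went from 0.0688 ± 0.0226 to 0.692 ± 0.172 and 0.659 ± 0.149. With 3 libraries against 3, an exact permutation test cannot go below p = 0.10, so these ratios are given with their spread and no test.

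**Figure D3:**
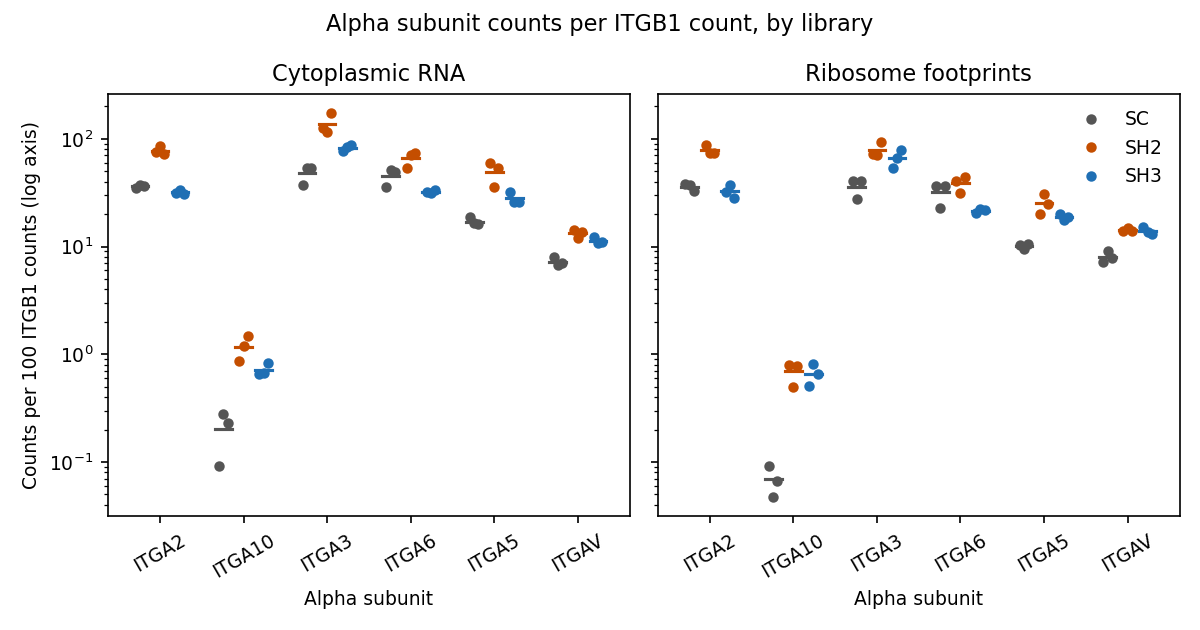
Counts of each alpha chain per 100 ITGB1 counts of the same library (points; bars are group means, n = 3), on a log axis, for cytoplasmic RNA on the left and footprints on the right. The SH2 points of ITGA2 lie between 73.0 and 87.7 over both panels, above all SC and SH3 points, and the SC points of ITGA10 lie below all of its hairpin points.

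Translational efficiency, footprints relative to RNA, showed no called change among these subunits. edgeR called 0 of the 8 tested subunits other than ITGA10 in SH2, in SH3 and between hairpins, and 0 of them had an unadjusted p under 0.05. DESeq2 called 0 of the 8 as well. Over 12531 genes, edgeR called 3.90% in SH2, 0.686% in SH3 and 0.0160% between hairpins, and DESeq2 called 8.80%, 4.23% and 2.65% of the genes it tested. Without SC replicate 1, edgeR called 1 of them in SH3, ITGB5 with a fall of 0.76 (edgeR BH-adjusted p = 0.0300). With all libraries, its change was -0.45 (95% interval -0.90 to 0.01, edgeR BH-adjusted p = 0.407). For ITGB5, mean footprint CPM over mean RNA CPM was 0.410 in SC, 0.345 with SH2 and 0.296 with SH3.

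The intervals show how large an undetected change could be. For ITGA3, the efficiency change was -0.18 in SH2 (95% interval -0.52 to 0.17, edgeR BH-adjusted p = 0.630) and -0.16 in SH3 (-0.50 to 0.19, edgeR BH-adjusted p = 0.765). For ITGB4 it was 0.26 (-0.12 to 0.64, edgeR BH-adjusted p = 0.487) and 0.18 (-0.20 to 0.56, edgeR BH-adjusted p = 0.750). ITGA2, ITGA5, ITGAV and ITGB1 had wider intervals, reaching -0.91 at the low end and 0.89 at the high end on the log2 scale. ITGA10, given as a description, had a mean footprint level over mean RNA level of 0.639 in SC, 1.26 with SH2 and 1.42 with SH3. On the log2 scale this was a difference of 0.97 (SE 0.45) in SH2 and 1.20 (SE 0.46) in SH3, resting on 3 to 7 SC footprint reads per library. With the footprint libraries thinned to the shallowest, the ITGA10 efficiency change was 0.45 for SH2 and 0.78 for SH3. Between the hairpins its efficiency differed by -0.22 (-0.87 to 0.42, edgeR BH-adjusted p = 0.831). Its selection for a footprint rise with both hairpins makes a small difference between them likely.

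**Figure D4:**
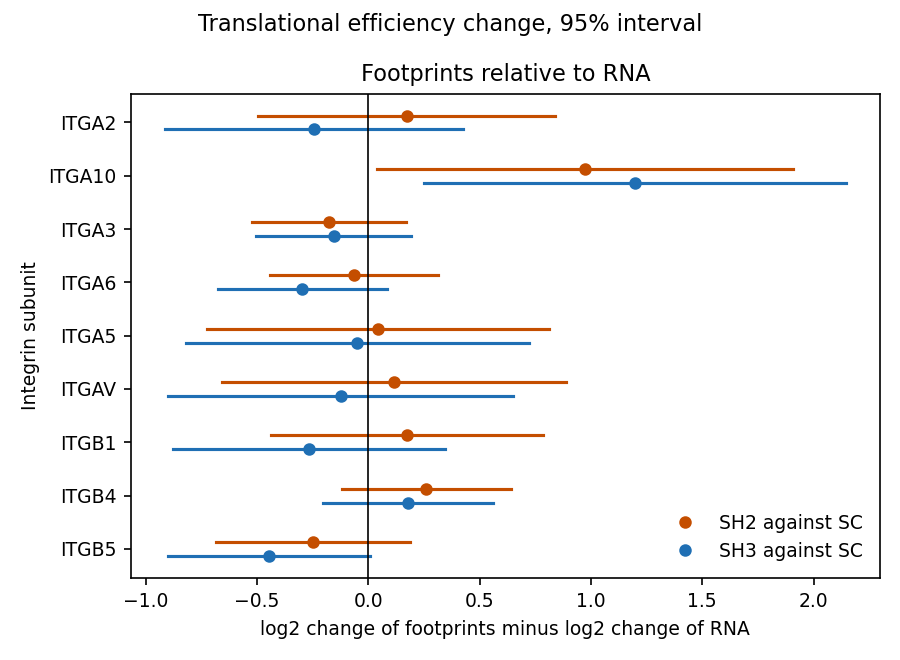
Change in translational efficiency of each subunit against SC on the log2 scale, the footprint change minus the RNA change (points), with its 95% interval (bars, 18 libraries in the fit). ITGB3 is not shown. Points of the subunits other than ITGA10 lie between -0.45 and 0.26 with intervals that cross 0, and the ITGA10 points at 0.97 and 1.20 have the widest intervals.

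The authors' deposited table gives its own DESeq2 changes for the same genes. For ITGA10 the authors' deposited table lists log2 changes of 2.75 and 2.39 in RNA and of 3.77 and 3.62 in footprints, for SH2 and SH3. A further pair of columns in the authors' deposited table, named RD, holds the same log2 value under SH2 and under SH3 for all 17017 genes. Across genes, that RD column correlated with r = 0.858 with the SH3 efficiency change computed here and with r = 0.465 with the SH2 change (genes are not independent replicates). For ITGA10 the authors' deposited table lists an RD of 1.21 with an adjusted p of 0.183 under both headings. The RD values listed under SH2 were therefore not used.

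The other 16 integrin subunits were mostly at low counts, and 6 passed the filter in RNA and 4 in footprints. In SH2 RNA, 3 of the 6 were called higher and 1 lower, against 31.1% and 30.4% of all genes. In SH3 RNA it was 1 higher and 1 lower, against 27.8% and 25.2%. In footprints 2 of the 4 were called higher and 1 lower in SH2, against 21.0% and 23.2% of all genes, and 1 and 1 in SH3, against 16.9% and 19.0%. With so few genes these counts cannot be set apart from the shares over all genes. ITGA1, a collagen receptor chain like ITGA2 and ITGA10, had 28.3 ± 3.38 CPM of footprints in SC, and rose to 80.3 ± 20.7 with SH2 and to 71.6 ± 10.4 with SH3 (mean ± SD, n = 3). That is a log2 change of 1.51 (edgeR BH-adjusted p = 1.86e-05) and 1.35 (edgeR BH-adjusted p = 9.59e-05). In RNA the ITGA1 change was 0.54 in SH2, not called (edgeR BH-adjusted p = 0.0546), and 0.93 in SH3 (edgeR BH-adjusted p = 0.00374). ITGAE, the chain of lymphocytes that binds E-cadherin, fell in RNA from 35.5 ± 2.88 CPM in SC to 16.7 ± 1.56 and 18.1 ± 2.55, by 1.09 (edgeR BH-adjusted p = 6.23e-06) and 0.97 (edgeR BH-adjusted p = 2.95e-05). In footprints ITGAE fell by 2.51 (edgeR BH-adjusted p = 0.000140) and 1.46 (edgeR BH-adjusted p = 0.00661). Its efficiency change in SH2 was -1.44, called by DESeq2 (DESeq2 BH-adjusted p = 0.0203) and not by edgeR (edgeR BH-adjusted p = 0.0562). Of the 5 other subunits tested in efficiency, edgeR called 0 with either hairpin. At an unadjusted edgeR p under 0.05 there were 3 in SH2 and 0 in SH3, against 2248 and 1574 of 12531 genes. DESeq2 called 1 in SH2, ITGAE, and 0 in SH3. The leukocyte gene PTPRC also fell in RNA, from 1.35 CPM in SC to 0.332 and 0.242. Other leukocyte genes did not fall with both hairpins. CD14 was 2.61 CPM in SC RNA, 3.44 in SH2 and 2.68 in SH3, and CD68 was 5.50, 5.36 and 6.99. The part of leukocyte RNA in the ITGAE value was not tested.

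ITGB8, another partner of ITGAV, was higher in SH2 than in SH3. It was picked for mention after its values were seen. Its RNA level averaged 5.92 ± 1.52 CPM in SC, 15.8 ± 2.66 with SH2, and 5.86 ± 0.981 with SH3 (mean ± SD, n = 3). The difference between SH2 and SH3 was 1.43 in RNA (edgeR BH-adjusted p = 7.78e-05) and 2.96 in footprints (edgeR BH-adjusted p = 6.00e-05), the latter from 3 or 4 SH3 reads per library.

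Of 37 tested adaptors that link integrins to the cytoskeleton and to signalling, 15 rose and 5 fell in SH2 RNA, where 31.1% of all genes rose and 30.4% fell. In SH3 RNA 15 rose and 11 fell, against 27.8% and 25.2% of all genes. In footprints 36 were tested, of which 12 rose and 3 fell in SH2, against 21.0% and 23.2% of all genes, and 10 rose and 8 fell in SH3, against 16.9% and 19.0%. The median log2 change of the adaptors in RNA was 0.11 in SH2 and 0.21 in SH3, where the medians of all genes were 0.012 and 0.034. PTK2B, the kinase PYK2, had 2.67 ± 1.02 CPM of RNA in SC, 18.2 ± 1.45 with SH2 and 11.2 ± 1.58 with SH3, and rose by 2.77 (edgeR BH-adjusted p = 1.84e-07) and 2.07 (edgeR BH-adjusted p = 4.42e-06). The hemidesmosome collagen COL17A1 rose in RNA by 1.43 (edgeR BH-adjusted p = 9.24e-06) and 0.89 (edgeR BH-adjusted p = 0.000758). Its footprints averaged 16.1 ± 0.695 CPM in SC, 50.7 ± 13.6 with SH2 and 23.0 ± 10.1 with SH3. PLEC, the plakin that ties ITGB4 to keratin, rose in footprints by 1.51 (edgeR BH-adjusted p = 4.04e-07) and 0.75 (edgeR BH-adjusted p = 0.000229).

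Of 20 tested matrix ligands, 12 rose and 4 fell in SH2 RNA, where 31.1% of all genes rose and 30.4% fell, and 10 rose and 2 fell in SH3 RNA, where 27.8% rose and 25.2% fell. Their median log2 change in RNA was 0.52 in SH2 and 0.50 in SH3. In footprints 19 were tested, of which 11 rose and 3 fell in SH2 and 8 rose and 2 fell in SH3, beside 21.0% higher and 23.2% lower of all genes in SH2 and 16.9% and 19.0% in SH3. The median footprint change of the ligands was 0.73 and 0.58 on the log2 scale. COL6A1, a chain of type VI collagen, had 49.0 ± 9.13 CPM of RNA in SC, 285 ± 41.2 with SH2 and 194 ± 23.6 with SH3, and rose by 2.54 (edgeR BH-adjusted p = 2.67e-08) and 1.99 (edgeR BH-adjusted p = 3.82e-07). COL5A1, a type V collagen chain, rose by 1.85 (edgeR BH-adjusted p = 4.44e-07) and 1.61 (edgeR BH-adjusted p = 3.03e-06) in RNA. In efficiency, edgeR called 0 ligands in either hairpin, with 1 and 2 at an unadjusted p under 0.05 and 0 by DESeq2. Among the adaptors edgeR called 0 in either hairpin, with 7 and 5 at an unadjusted p under 0.05, and DESeq2 called 2 in SH2 (BCAR1 and SHARPIN, both lower) and 0 in SH3.

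The genes whose footprint pattern was most like that of ITGA10 were found by Pearson correlation of log2 CPM over the 9 footprint libraries. They were CSGALNACT1 (r = 0.996), a chondroitin sulfate synthesis enzyme, PDCD11 (0.992), a ribosome biogenesis factor, SCFD1 (0.990) and EXOC7 (0.989), of vesicle traffic, and the protocadherin PCDH1 (0.988). CSGALNACT1 footprints averaged 0.734 CPM in SC, 4.81 with SH2 and 4.56 with SH3, and those of PCDH1 were 3.76, 18.9 and 19.2. All 5 had lower means in SC than in either hairpin group, which picking them for likeness to ITGA10 makes likely. The 9 libraries share 3 treatments and differ in depth, so high correlations of this kind are a description of 3 group levels.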

How the data were processed

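Raw, whole-number counts per gene and library were deposited by the authors in 1 table, with normalized signal columns that equal the deposited counts divided by 1 size factor per library. Per the file headers, the deposited log2 fold changes and p-values come from the authors' DESeq2 comparisons of each hairpin with SC. Bowtie 1.2.2 and DESeq2 are named in the submitters' processing notes. Genome build, annotation and counting tool are not given in the sources used here.

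The members and gene lists were chosen with earlier results of these data known. Deposited counts were tested with edgeR 4.0.16 in R 4.3.3 (filterByExpr with a minimum count of 10, TMM, two-sided quasi-likelihood test, Benjamini-Hochberg over all genes tested). RNA and footprints were fitted over 9 libraries each, and efficiency over 18 as the difference of the 2 changes. ITGB3 failed the filter. Intervals use the t quantile of the fit, and SE is the log2 change over the square root of F. Counting intervals and SEs cover no bias of amplification, as no molecular identifiers are described. The script was tested on simulated data. No replicates agreed within counting noise (chi-square per degree of freedom 3.55 to 58.7). Alternatives were DESeq2 1.42.0, its size factors, no filter, fewer groups, thinned footprints, a replicate block and single replicates left out. Besides the members, the text names up to 3 genes per list and measure called the same way with both hairpins, by mean absolute change, and the 5 genes most like ITGA10. Some genes that this rule names are not reported here. Promoters are RefSeq's.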

Additional observations from a re-analysis of the deposited data

Results flagged for a closer look

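The response to SH2 and the response to SH3 differed by a direct test of the 2 hairpin groups in 7 cases. ITGA2 was higher in SH2 than in SH3 by 0.95 in RNA and 1.38 in footprints on the log2 scale, by edgeR's quasi-likelihood test (adjusted p = 0.000475 and 0.000875). All 3 SH2 libraries lay above all 3 SH3 libraries in both measures. ITGA6 was higher by 0.69 in RNA and 0.94 in footprints (edgeR adjusted p = 0.000542 and 0.000246), again with no overlap between the hairpin groups. ITGB5 was higher by 0.59 in RNA and 0.81 in footprints (edgeR adjusted p = 0.00137 and 0.00493), where SH3 is the group below SC. ITGA3 was higher by 0.38 in RNA (edgeR adjusted p = 0.00534). FBL RNA averaged 5.67 CPM in SH2 (SD 5.09, n = 3) and 3.49 CPM in SH3 (SD 0.612, n = 3), and its part in these differences was not tested.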

How the results depend on the processing

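Calls of the tested subunits against SC kept their direction in RNA and footprints under every alternative run, and efficiency changes near 0 turned sign most often. Over all alternatives, 2 calls were lost and 12 gained among RNA values, 3 and 10 among footprints and 0 and 1 in efficiency. Between hairpins, 5 subunits were called in footprints in place of 3 with no filter on low counts and with only the groups compared in the fit. In efficiency, SH3 had 0 to 1 called subunits over single replicates left out. With a replicate block the counts of called subunits, ITGA10 included, were 7 and 8 in RNA (SH2 and SH3 against SC). They were 7 and 6 in footprints, 0 and 0 in efficiency, and 6, 4 and 0 between hairpins. The main fit, ITGA10 included, gave 7 and 7 in RNA, 7 and 6 in footprints and 0 and 0 in efficiency. Between hairpins the main fit gave 4, 3 and 0. ITGA10 was selected on its rise, so its calls against SC within these counts are not a test. In the main fits equal numbers were not taken as pairs, since the labels name no shared batch. Same-numbered libraries of different treatments correlated at -0.083 to 0.435 in RNA and -0.117 to 0.314 in footprints. SC with SH2 was positive at every number, at 0.296 to 0.358 in RNA and 0.250 to 0.297 in footprints. With the block, calls over all genes went from 7805 to 8353 in SH2 RNA and from 6732 to 7396 in SH3 RNA. A shared effect of replicate number was not tested. Changes that turned sign were ITGB5 footprints in SH2 (0.011 when footprints were thinned to 1 depth), ITGA5 efficiency in SH2 (-0.0085 with a replicate block) and in SH3 (0.034 when thinned). Over single replicates left out, ITGA6 RNA in SH3 ran from -0.055 to 0.097, ITGAV RNA between hairpins from -0.21 to 0.038, ITGB5 footprints in SH2 from -0.31 to 0.050 and ITGA2 footprints in SH3 from -0.12 to 0.48. Between hairpins, ITGAV footprints ran from -0.049 to 0.35 and ITGB1 footprints from -0.040 to 0.25. Efficiency in SH2 ran from -0.17 to 0.59 for ITGA2, -0.46 to 0.42 for ITGA5, -0.19 to 0.068 for ITGA6, -0.43 to 0.68 for ITGAV and -0.22 to 0.57 for ITGB1. In SH3 it ran from -0.59 to 0.18 for ITGA2, -0.52 to 0.30 for ITGA5, -0.68 to 0.44 for ITGAV and -0.67 to 0.13 for ITGB1. Between hairpins it ran from -0.15 to 0.054 for ITGA3, -0.41 to 0.47 for ITGA5 and -0.0075 to 0.19 for ITGB4. The causes were not tested. Over all genes, the efficiency count was 489 in SH2 (910 with DESeq2, 191 with a replicate block, 184 with only the groups compared, 189 thinned, 110 to 555 over replicates left out). In SH3 it was 86 (355, 23, 46 and 10 to 244, in that order without thinning), and between hairpins 2 (229, 0, 36, 1 thinned and 0 to 51; 35 with no filter). Footprint counts fell from 3719 to 2423 in SH3 and from 2459 to 1483 between hairpins when thinned, and the latter to 1541 without SH3 replicate 2. Depth limits ITGA10, at 3 to 7 SC footprint reads per library, and ITGB3, which was too low to test in RNA and in footprints.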

Other observations

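The replicate numbers of the RNA and footprint libraries did not go together in part of the samples. Over 10335 genes, the deviation of an RNA library from its group mean correlated with that of the same-numbered footprint library at r = -0.49 and -0.46 in SC replicates 1 and 2, and at -0.30 and -0.31 in SH2 replicates 1 and 2. In the other 5 pairs r was 0.21 to 0.50. These are correlations across genes, which are not independent replicates. The ratios of footprints to RNA given are of group means, and the main efficiency fit did not pair libraries by number. The replicate block for efficiency did pair same-numbered RNA and footprint libraries. Leaving out a replicate removed both libraries of that number. Those efficiency values therefore depend on numbers that may not match.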
